A study of Mus musculus with 6 samples.

Results

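The genes described here are 9 core genes of regulatory T cells (Foxp3, Ikzf2, Ikzf4, Il2ra, Ctla4, Nrp1, Lrrc32, Gpr83 and Izumo1r) and Nrn1, which encodes neuritin, measured in CD4+TCRβ+ cells of female mice. They were chosen by name, and each of the 10 genes was read from 1 transcript cluster, so that taking the brightest cluster of a gene, as the rule asked, left nothing to choose. They are 10 of the 19938 genes with a transcript cluster of their own symbol, and of the 23410 clusters tested. The list was drawn up with earlier results of these arrays known, among them the lower signal of Nrn1, whose strain difference is therefore a description. The mice were females of 8 weeks from litters with males, on the C57BL/6J background and not immunized. One group was C57BL/6J itself (B6), and the other, B6-ChrYSJL, was sired by males whose Y chromosome (ChrY) came from SJL; the daughters carry no ChrY, and the comparison asked whether the ChrY of the fathers goes with a different transcriptome in the T cells of their daughters. Lymph nodes (inguinal, brachial, axillary) from 5 mice made 1 pool and 1 array, with 3 pools for each strain. Cells were sorted on CD4 and the T-cell receptor β chain, a gate that keeps regulatory T cells together with all other CD4+ T cells, so that fewer regulatory T cells and less RNA in each of them cannot be told apart in these values.

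Regulatory T cells are CD4+ T cells that restrain immune responses, and mice and humans that lack FOXP3 develop fatal autoimmunity. FOXP3 works with other transcription factors, Helios (Ikzf2) and Eos (Ikzf4) among them, and the cells take up IL-2 through the receptor chain CD25 (Il2ra), remove co-stimulatory ligands with CTLA-4 and display latent TGF-β on GARP (Lrrc32). Neuropilin-1 (Nrp1) and Helios are known from regulatory T cells that arise in the thymus, and the folate receptor family member FR4 (Izumo1r) and neuritin are also known from anergic CD4+ T cells. Values are log2 array signals, and background was set at 5.98, below which lay 95% of 1210 transcripts of olfactory or vomeronasal receptors. Every one of the 10 genes lay above it on all 6 arrays, by 1.13 (Nrn1 in B6-ChrYSJL replicate 1) or more. The 9 measured genes of CD4 T cell identity were all above background in the sorted cells. None of them passed an unadjusted p of 0.05 in limma, and their median log2 difference was −0.03. For 4 of these 9 (Zap70, Cd247, Thy1 and Cd5) the B6-ChrYSJL pools nonetheless lay below all B6 pools, with differences from −0.11 to −0.08. The same held for 9.42% of all tested transcripts.

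The strain differences of these genes ran from negative to positive. Nrn1, Nrp1, Ctla4 and Foxp3 were lower in B6-ChrYSJL with no overlap between the pools of the strains, Ikzf4 was lower with overlap (limma, unadjusted p under 0.05, a call lost in 8 of 16 alternative settings), Ikzf2 and Izumo1r had negative differences within the spread of the pools, Il2ra and Lrrc32 had differences near 0, and Gpr83 was the only one of the 10 with a positive difference. In all, 5 of the 10 were lower at an unadjusted p under 0.05 and none was higher, where 5.92% of all tested transcripts were lower and 4.69% higher by the same rule. Groups did not overlap for 4 of the 10, all lower, against 9.42% of all tested transcripts in that direction and 17.1% in either. Both counts include Nrn1, which was listed with its lower signal known. Without it, 4 of 9 were lower at that p and 3 of 9 were lower without overlap. The median log2 difference, B6-ChrYSJL minus B6, was −0.20 over the 10 genes, −0.19 over the 9 without Nrn1 and −0.004 over all tested transcripts. After Benjamini-Hochberg adjustment over all 23410 transcripts none of the 10 passed an FDR of 0.05 (0.0171% of all) and Nrn1 alone passed 0.1 (0.0726% of all). The count of none higher also depends on the setting, since Gpr83 was higher at an unadjusted p under 0.05 in 4 of the 16 alternatives.

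**Figure D1:**
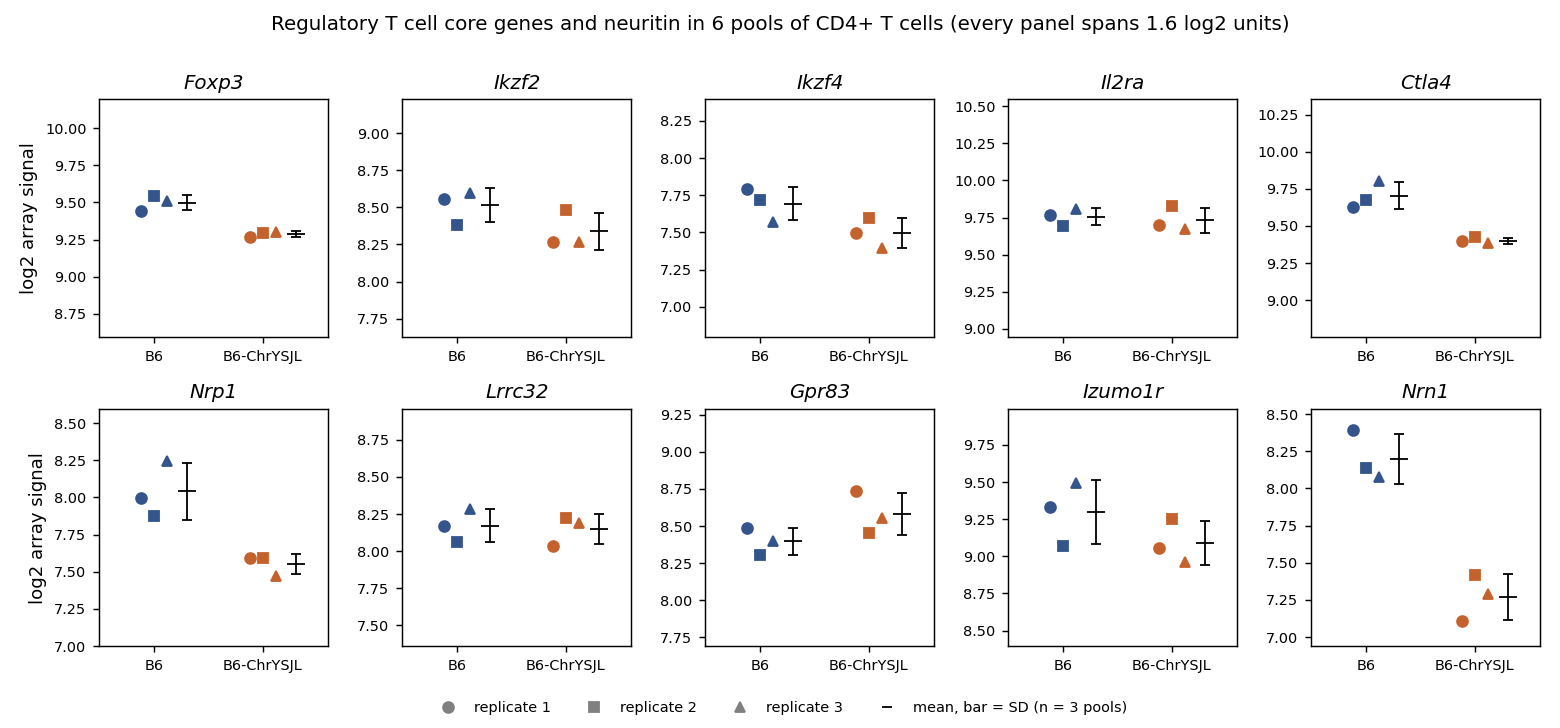
Log2 array signal (vertical) of the 9 core genes and Nrn1 in the 3 pools of B6 (blue) and the 3 pools of B6-ChrYSJL (orange), with the mean and SD in black; every panel spans the same range, centred on the mean of the gene. The strains are apart for Nrn1, Nrp1, Ctla4 and Foxp3, while Il2ra and Lrrc32 overlap almost fully and Gpr83 lies higher on average in B6-ChrYSJL.

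Among the transcription factors, Foxp3, which defines the lineage, had the closest pools. Its log2 signals were 9.44, 9.54 and 9.51 in B6 replicates 1, 2 and 3 and 9.27, 9.30 and 9.30 in B6-ChrYSJL. All B6-ChrYSJL pools lay below all B6 pools, by at least 0.14, and the means were 9.50 ± 0.05 (SD, n = 3 pools) and 9.29 ± 0.02. The log2 difference of −0.21 (standard error 0.06, adjusted p = 0.359 in limma) corresponds to a signal 13.6% lower. Of the genes next to Foxp3 on the X chromosome, Ccdc22 was also at −0.21 (standard error 0.08, adjusted p = 0.425 in limma). Ppp1r3f was at −0.14 (standard error 0.11). Ikzf2, which encodes Helios, was at 8.56, 8.38 and 8.60 in B6 and at 8.26, 8.48 and 8.27 in B6-ChrYSJL. B6-ChrYSJL replicate 2 lay among the B6 pools, and the difference of −0.18 (standard error 0.09, adjusted p = 0.531) had a 95% confidence interval from −0.38 to 0.03. Ikzf4, which encodes Eos, a partner of FOXP3 in gene silencing, was at 7.79, 7.71 and 7.57 in B6 and 7.50, 7.60 and 7.40 in B6-ChrYSJL. Its highest B6-ChrYSJL pool passed its lowest B6 pool by a small margin, and the difference was −0.19 (standard error 0.08, adjusted p = 0.467).

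The receptors of the IL-2 and co-stimulation pathways differed from each other. Il2ra, which encodes CD25, the chain that gives the IL-2 receptor high affinity and by which regulatory T cells are often sorted, read 9.77, 9.70 and 9.81 in B6 and 9.70, 9.83 and 9.67 in B6-ChrYSJL. The pools were interleaved, and the difference was −0.02 with a 95% confidence interval from −0.19 to 0.14. Ctla4, which takes CD80 and CD86 off antigen-presenting cells, read 9.63, 9.67 and 9.80 in B6 and 9.40, 9.42 and 9.38 in B6-ChrYSJL. Here the gap between the strains was 0.20 and the 3 B6-ChrYSJL pools lay within 0.04 of each other. The difference was −0.30 (standard error 0.07, adjusted p = 0.286 in limma), a signal 18.9% lower.

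Nrp1, the co-receptor for semaphorins and vascular endothelial growth factor, had the most negative difference of the 9 core genes. Its signals were 8.00, 7.88 and 8.25 in B6 and 7.59, 7.59 and 7.47 in B6-ChrYSJL. The groups were apart by 0.28, with B6 the more variable one (SD 0.19 against 0.07), and the difference was −0.49 (standard error 0.10, adjusted p = 0.254 in limma), or 28.7% lower. Lrrc32, whose product GARP holds latent TGF-β at the cell surface, read 8.17, 8.06 and 8.28 in B6 and 8.03, 8.22 and 8.19 in B6-ChrYSJL. Its difference was −0.02, with a 95% interval from −0.22 to 0.17.

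Gpr83, a G protein-coupled receptor that marks regulatory T cells, went the other way, with 8.49, 8.30 and 8.40 in B6 and 8.74, 8.45 and 8.56 in B6-ChrYSJL. B6 replicate 1 lay above B6-ChrYSJL replicate 2, so that the groups overlapped, and the difference of 0.18 (standard error 0.09, adjusted p = 0.518 in limma) had an interval from −0.02 to 0.39. Izumo1r, which encodes FR4 and in eggs the receptor for sperm, read 9.33, 9.07 and 9.49 in B6 and 9.05, 9.25 and 8.96 in B6-ChrYSJL. It was the most variable of the 10 within B6 (SD 0.22), and its difference of −0.21 (standard error 0.12, adjusted p = 0.572) equalled that of Foxp3 in size but lay within the spread. Gpr83 and Izumo1r are next to each other on chromosome 9 in the gene order of RefSeq. Gpr83 minus Izumo1r, a pair chosen after its values were seen, was higher by 0.39 in B6-ChrYSJL (exact two-sided permutation test, p = 0.2, where 0.1 is the smallest that 3 pools against 3 allow).

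Nrn1 encodes a small protein anchored to the cell surface by lipid, first known for the growth of neurites. Its signals were 8.39, 8.14 and 8.08 in B6 and 7.11, 7.42 and 7.29 in B6-ChrYSJL. The lowest B6 pool was 0.66 above the highest B6-ChrYSJL pool, which is more than the range of either strain (0.32 and 0.31). B6 had a mean of 8.20 ± 0.17 and B6-ChrYSJL one of 7.27 ± 0.15 (SD over 3 pools), a log2 difference of −0.93 (standard error 0.11, adjusted p = 0.0615 in limma) or a signal 47.5% lower. By p and by size of a negative difference alike, Nrn1 stood at rank 8 of the 23410 tested transcripts, where Nrp1 stood at 97 and 71, Ctla4 at 187 and 346 and Foxp3 at 610 and 1135. Its relative Nrn1l was at −0.03 (standard error 0.08), and the genes next to Nrn1 on chromosome 13, Fars2 and F13a1, were at 0.08 (standard error 0.08) and −0.12 (standard error 0.07).

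Each gene was also set against Foxp3 of the same pool. On this scale Ikzf2, Ikzf4 and Izumo1r had differences within 0.04 of 0, the pools of Nrn1 and Nrp1 were lower in B6-ChrYSJL without overlap, and those of Il2ra and Gpr83 were higher without overlap. For Nrn1 the log2 value minus that of Foxp3 was −1.30 ± 0.21 in B6 and −2.02 ± 0.14 in B6-ChrYSJL (SD over 3 pools), a difference of −0.72 (95% confidence interval in limma −0.98 to −0.46). For Nrp1 the averages were −1.46 and −1.73, a difference of −0.28 (interval −0.52 to −0.04). The pools of Nrp1 were barely apart here, since B6 replicate 2 (−1.67) almost met B6-ChrYSJL replicate 1 (−1.67). For Gpr83 they were −1.10 and −0.71, a difference of 0.39 (0.16 to 0.63). Il2ra was at 0.26 and 0.44, also without overlap, and its interval ran from 0.00025 to 0.37. The exact two-sided permutation test gave p = 0.1 for these 4 genes, the smallest it can give with 3 pools against 3, so that none of the 9 comparisons with Foxp3 could pass a threshold of 0.05 in that test, while limma's intervals left out 0 for all 4. In limma the adjusted p over all transcripts was 0.0261 for Nrn1, 0.0317 for Gpr83, 0.0696 for Nrp1 and 0.0985 for Il2ra, in a fit where every transcript carries the difference of Foxp3. Il2ra reached its adjusted p with an unadjusted p of 0.0497 in limma, so a large share of all transcripts passed in this fit. An interval that leaves out 0 is therefore not particular to these 4 genes. The share of all transcripts without overlap was not counted on this scale. Differences were 0.04 for Ikzf2 (interval −0.19 to 0.26), 0.02 for Ikzf4 (−0.20 to 0.23), 0.003 for Izumo1r (−0.28 to 0.28), −0.09 for Ctla4 (−0.26 to 0.08) and 0.19 for Lrrc32, each with overlapping pools. A transcript with no strain difference has a value of 0.21 on this scale, and Il2ra, at 0.19, lay near that value.

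**Figure D2:**
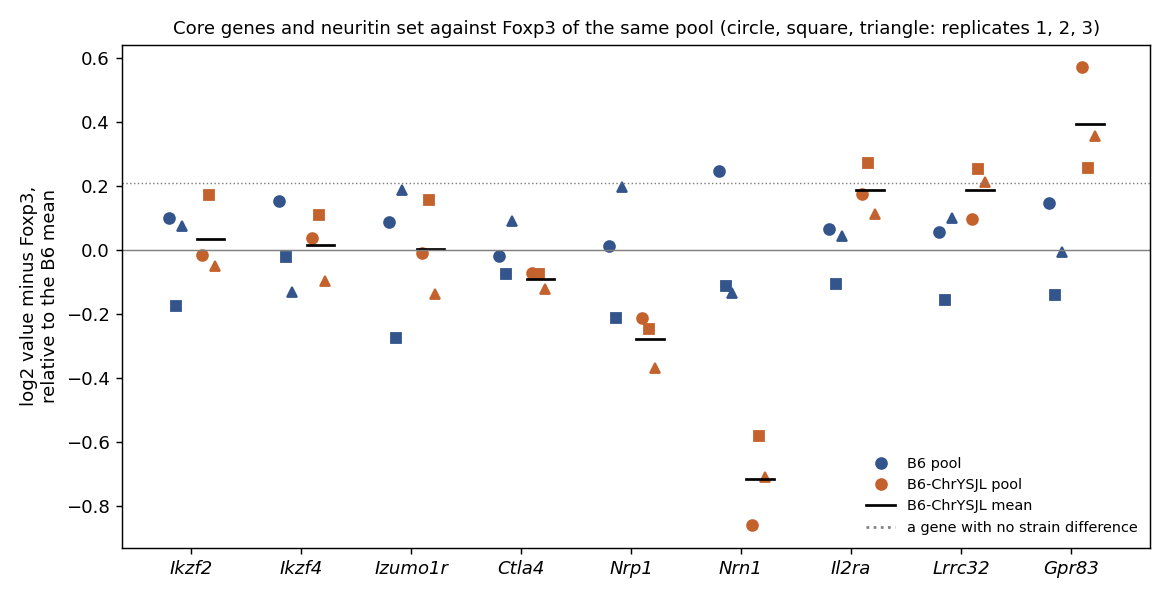
Log2 value of each gene minus that of Foxp3 in the same pool, shifted so that the B6 mean is 0 (solid line), for B6 pools (blue) and B6-ChrYSJL pools (orange), with the B6-ChrYSJL mean as a black line; the dotted line is where a gene with no strain difference falls. Ikzf2, Ikzf4 and Izumo1r average within 0.04 of the solid line, Nrp1 and Nrn1 lie below it at −0.28 and −0.72, and Gpr83 lies above it at 0.39.

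RefSeq promoter windows were at hand for 6 of the 10 genes, and 5 are shown because these genes ran from lower (Nrp1, Ctla4, Foxp3) through near 0 (Il2ra) to higher on average (Gpr83). Each is the 250 bases before a transcript start in GRCm38.p6, 5′ to 3′, with the forkhead core AAACA in capitals on either strand (TGTTT on the other).
Foxp3, chrX:7579426-7579675, + strand: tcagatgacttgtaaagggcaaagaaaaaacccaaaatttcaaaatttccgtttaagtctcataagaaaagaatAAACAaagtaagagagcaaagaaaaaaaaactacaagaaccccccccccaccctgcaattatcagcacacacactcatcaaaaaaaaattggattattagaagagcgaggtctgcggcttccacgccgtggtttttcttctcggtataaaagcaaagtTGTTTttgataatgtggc
Ctla4, chr1:60908775-60909024, + strand: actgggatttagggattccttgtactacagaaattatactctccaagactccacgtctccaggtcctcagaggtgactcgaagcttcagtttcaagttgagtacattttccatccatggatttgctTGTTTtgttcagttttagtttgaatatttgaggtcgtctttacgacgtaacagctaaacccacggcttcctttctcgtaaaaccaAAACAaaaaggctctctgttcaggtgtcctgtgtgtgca
Il2ra, chr2:11642542-11642791, + strand: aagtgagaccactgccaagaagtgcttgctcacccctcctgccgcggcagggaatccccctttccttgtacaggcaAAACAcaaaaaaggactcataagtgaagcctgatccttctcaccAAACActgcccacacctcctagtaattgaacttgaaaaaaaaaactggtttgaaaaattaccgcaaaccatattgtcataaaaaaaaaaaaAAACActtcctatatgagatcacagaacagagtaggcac
Nrp1, chr8:128358823-128359072, + strand: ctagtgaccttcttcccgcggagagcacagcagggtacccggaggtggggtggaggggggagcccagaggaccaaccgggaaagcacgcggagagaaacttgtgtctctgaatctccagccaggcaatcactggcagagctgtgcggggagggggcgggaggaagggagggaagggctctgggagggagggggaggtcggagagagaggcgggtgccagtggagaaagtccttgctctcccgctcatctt
Gpr83, chr9:14859960-14860209, + strand: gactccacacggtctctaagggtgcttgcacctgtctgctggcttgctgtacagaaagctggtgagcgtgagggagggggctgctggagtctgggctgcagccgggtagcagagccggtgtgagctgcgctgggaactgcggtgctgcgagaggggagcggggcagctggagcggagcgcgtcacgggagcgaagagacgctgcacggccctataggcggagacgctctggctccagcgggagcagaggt
RefSeq holds a second Foxp3 window, chrX:7580233-7580482, not printed, with 46.0% G and C, 1 match to the forkhead core and 1 to a STAT motif (TTCNNNGAA, both strands, in 7.02% of all windows). The windows shown for Foxp3, Ctla4 and Il2ra were rich in A and T (37.6%, 42.4% and 42.4% G and C, where the median promoter had 52.4%) and held 2, 2 and 3 matches to the forkhead core, a motif found in 46.4% of all 32851 RefSeq windows of this length. Those of Nrp1 and Gpr83 had 64.4% and 66.8% G and C and held no match. In the 5 printed windows the letters thus grouped Foxp3 and Ctla4, which were lower, with Il2ra, which was near 0. They grouped Nrp1, which was lower, with Gpr83, which was higher on average. The window of Izumo1r, not printed, had 50.0% G and C and 1 match to the forkhead core, and belonged to neither group. An NFAT core (GGAAA, both strands) was in the windows of Foxp3, Ctla4, Il2ra, Nrp1 and Izumo1r and in 55.6% of all windows. A match is only a run of letters in this window.

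Other genes known to be high in regulatory T cells were mostly lower. Of 19 such genes that were measured, 18 were lower in B6-ChrYSJL at an unadjusted p under 0.05 in limma (5.92% of all tested transcripts), 15 had no overlap between the strains (9.42% of all) and all 19 differences were negative, with a median of −0.36. Klrg1, Il10 and Gzmb, which are among the 18, averaged below background over the 6 arrays, and over transcripts above background 15 of 16 were lower. Itgae, the CD103 chain that binds E-cadherin, read 7.98, 8.18 and 8.22 in B6 and 7.21, 7.26 and 7.28 in B6-ChrYSJL, a difference of −0.87 (standard error 0.08, adjusted p = 0.0218), and was the only one past an FDR of 0.05. The strains were apart for it by more than the range of either.

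Klrg1, a receptor of effector cells and effector-like regulatory T cells, lay near background in B6 (mean 6.01) and below it in B6-ChrYSJL (mean 5.26), so that the difference plotted for it has no firm size. Penk, the precursor of enkephalins, was at −0.63, Ebi3, a chain of IL-35 and IL-27, at −0.55, Ccr8, a chemokine receptor of regulatory T cells in tissues, at −0.49, and Capg, which caps actin filaments, at −0.47. Itgb8, which with the αv integrin chain releases TGF-β from GARP, was at −0.41 (standard error 0.09) where Lrrc32 was at −0.02. Entpd1 and Nt5e, the enzymes CD39 and CD73 that turn extracellular ATP into adenosine, were at −0.38 and −0.36. The receptors of the tumor necrosis factor family were closer to Foxp3 in size, with Tnfrsf9 (4-1BB) at −0.29, Tnfrsf4 (OX40) at −0.26 and Tnfrsf18 (GITR) at −0.20. Swap70, a signaling protein of the actin skeleton, was at −0.09 (standard error 0.09) and did not pass. Set against Foxp3 of the same pool, Itgae was at −0.66 and Capg at −0.26, both without overlap, and Nt5e at −0.15 with overlap. How many of all transcripts lacked overlap on that scale was not counted. This list was written with earlier results known, in which regulatory T cell genes were already lower, and several of its genes are also used by activated and memory T cells.

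**Figure D3:**
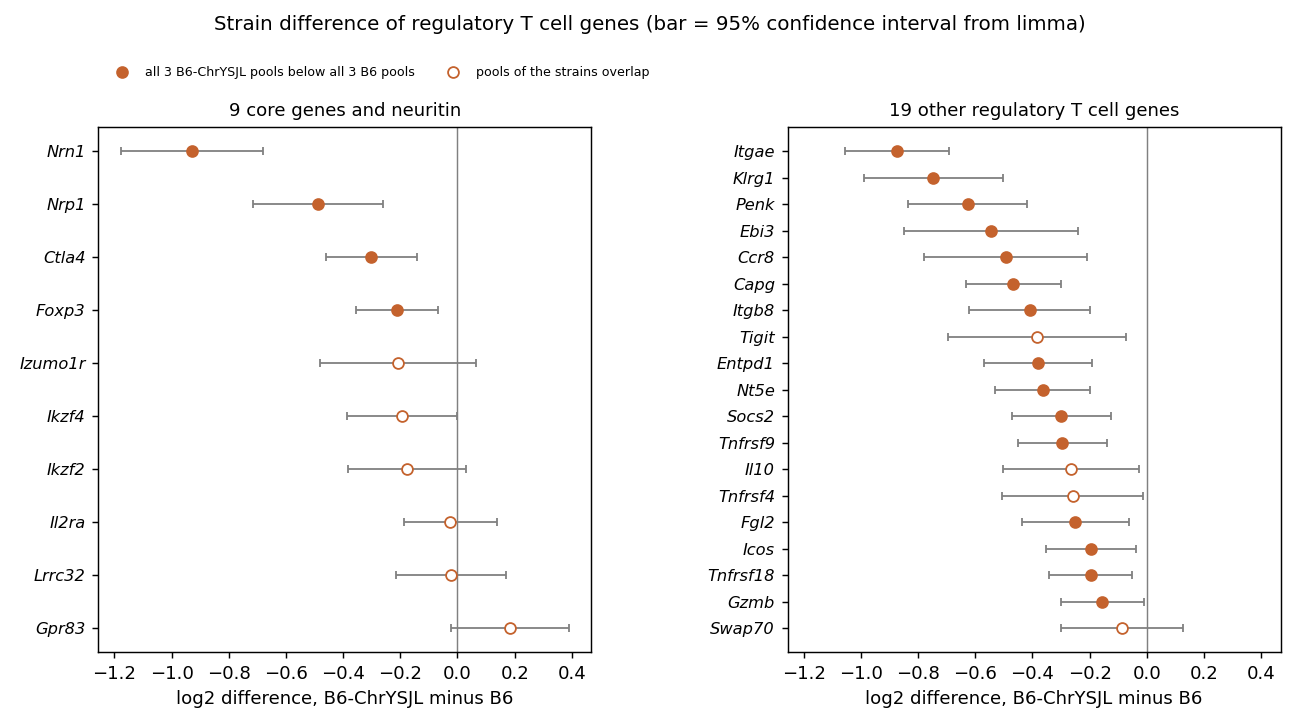
Log2 difference between the strains (horizontal, B6-ChrYSJL minus B6) with its 95% confidence interval from limma for the 9 core genes and Nrn1 (left) and for 19 other regulatory T cell genes (right); filled symbols mark genes whose pools do not overlap. On the left the differences run from −0.93 for Nrn1 and −0.49 for Nrp1 to 0.18 for Gpr83, while every gene on the right is negative, from −0.87 for Itgae to −0.09 for Swap70.

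The factors that induce Foxp3 or act with it mostly did not pass the test. Of 21 measured, 3 were lower at an unadjusted p under 0.05, namely Nr4a1, which T-cell receptor signals induce within minutes to hours (−0.37, standard error 0.11), Prdm1, which encodes BLIMP-1 (−0.30, standard error 0.10), and Irf4, a factor of effector regulatory T cells (−0.20, standard error 0.08), and the median was −0.03. Without overlap 5 of the 21 were lower and 1 was higher, against 9.42% and 7.68% of all tested transcripts. Of 8 measured genes of IL-2 receptor signaling 3 were lower at an unadjusted p under 0.05 and the median was −0.05. By that rule 5.92% of all tested transcripts were lower. Cish, a feedback inhibitor that IL-2 induces through STAT5, was at 7.96 ± 0.02 in B6 and 7.68 ± 0.01 in B6-ChrYSJL (SD over 3 pools), a difference of −0.27 (standard error 0.06, adjusted p = 0.254 in limma). Il2rb, the β chain that pairs with CD25, was at −0.18 (standard error 0.07), Il2 itself, below background, at −0.34 (standard error 0.15), and Stat5a and Stat5b at −0.07 and −0.01.

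Genes of T cell anergy, of which FR4, CD73 and neuritin are surface signs, had 1 of 12 lower, Dgkz, a brake on diacylglycerol signaling (−0.20, standard error 0.06), with Dgka at −0.07 and Ndrg1 at −0.07 (median −0.04). Of 12 genes of follicular helper and follicular regulatory T cells, 2 were lower: Pdcd1, which encodes PD-1 (−0.26, standard error 0.09), and the transcription factor Maf (−0.51, standard error 0.19). Sh2d1a, the adaptor SAP, was at 0.17 (standard error 0.08) and the median was −0.13. Among 12 partners of the surface genes, Cd86, a ligand of CTLA-4, was lower (−0.36, standard error 0.09) and Plxna4, a plexin that signals with neuropilin-1, was higher (0.24, standard error 0.10) but averaged below background in B6 (5.89 against 6.13 in B6-ChrYSJL), while Tgfb1 was at −0.10 (standard error 0.07). Of 8 naive T cell genes, Igfbp4 (−0.23) and Dapl1 (−0.29) were lower, Ccr7 was at 0.11, and the median was 0.02. By an unadjusted p under 0.05 in limma, 5.92% of all tested transcripts were lower and 4.69% higher. No gene of these lists passed an FDR of 0.05.

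Close relatives of the members mostly did not pass either. Of 14 measured, Icos was lower and Folr2 higher at an unadjusted p under 0.05 in limma (5.92% and 4.69% of all tested transcripts). Pools did not overlap for 3 lower and 2 higher genes of the 14, against 9.42% and 7.68% of all. Icos and Cd28 are the genes next to Ctla4 on chromosome 1 and belong to its family; Icos was at −0.20 (standard error 0.07) and Cd28 at 0.08 (standard error 0.06). In the Ikaros family, Ikzf1, Ikzf3 and Ikzf5 were at 0.03, −0.12 and −0.08 (standard errors 0.07, 0.07 and 0.06), and among the relatives of Foxp3, Foxp1, Foxp2 (below background) and Foxp4 were at 0.03, 0.08 and −0.11. Nrp2 (0.01) and Folr1 (−0.08), both below background, Nrros, a relative of GARP (−0.07), and Il15ra, the neighbor and relative of Il2ra (0.03), did not pass. Folr2 passed an unadjusted p of 0.05 with a positive difference of 0.23 but averaged below background. Itgb1, which lies next to Nrp1 on chromosome 8 and was named after its value was seen, was at −0.34 (standard error 0.06, adjusted p = 0.191 in limma).

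**Figure D4:**
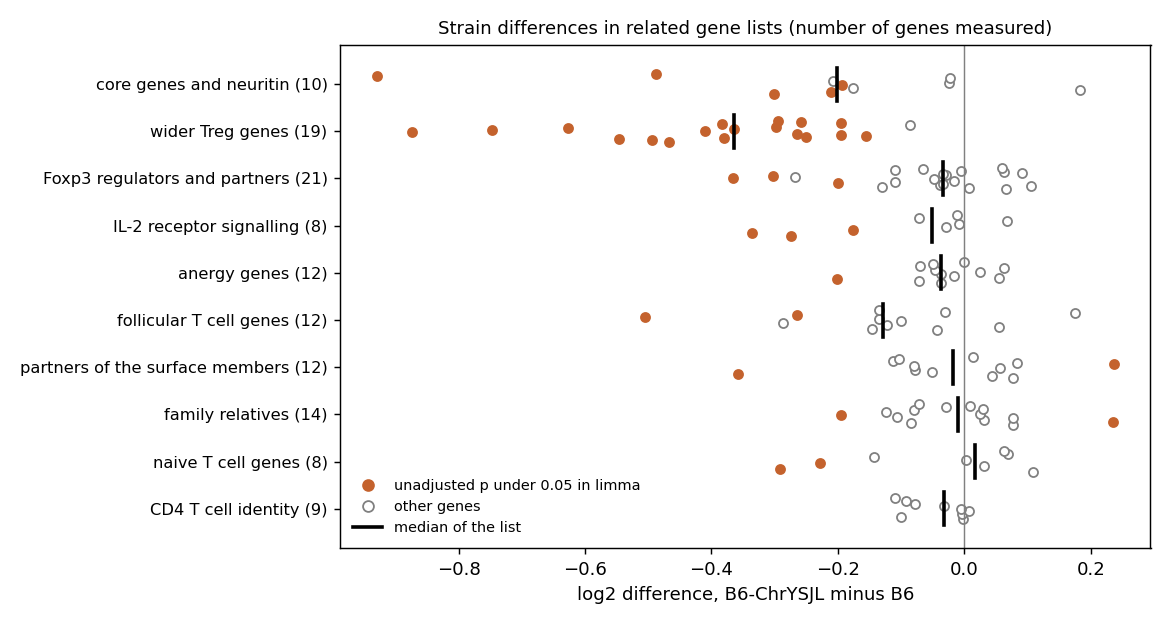
Log2 difference between the strains (horizontal) of each gene in the lists of related genes, with genes at an unadjusted p under 0.05 in limma filled and the median of each list as a black bar; the number of genes measured is in brackets. The other regulatory T cell genes have a median of −0.36 and the 9 core genes with Nrn1 one of −0.20, while the medians of the remaining lists lie between −0.13 and 0.02.

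The transcripts nearest to Nrn1 in pattern, by the root mean square difference of values centred on each transcript's mean over the 6 arrays, came from other gene families. Among 13495 other transcripts whose mean over the 6 arrays was above background they were the small nucleolar RNA Snord14e (0.13), G530011O06Rik (0.14), Entpd4, a nucleotide-splitting enzyme of the Golgi apparatus (0.16), Ccr2, a chemokine receptor that was below background in all B6-ChrYSJL pools (0.16), and S100a6, a calcium-binding protein (0.16). Itgae stood at rank 11, Nrp1 at 37, Ctla4 at 189 and Foxp3 at 561. The nearest to Foxp3 were Hexa, Snapc4, Mapk11, Hectd3 and Bptf, all within 0.022, and Ctla4 was the nearest core gene, at rank 735. These ranks describe values of 6 arrays only, which all share the contrast between the strains.

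Within each strain 1 pool tended to be high for these genes. B6 replicate 3 was the highest B6 pool for 6 of the 10 and B6 replicate 2 the lowest for 6, while B6-ChrYSJL replicate 2 was the highest of its strain for 7. Gpr83 departed from this in B6-ChrYSJL, where replicate 2 was its lowest pool, and Foxp3 and Nrp1 were highest there in replicates 3 and 1. Nrn1 and Ikzf4 were lowest in B6 in replicate 3, the pool in which Nrp1, Ctla4 and Izumo1r were highest. How many of all transcripts were highest or lowest in each pool was not counted. The summed linear signal of the 10 genes was 4573 to 5041 in the B6 pools and 4092 to 4397 in the B6-ChrYSJL pools.

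Markers of other cells moved with these genes in part. Both CD8 T cell markers were above background and lower in B6-ChrYSJL, at an unadjusted p under 0.05 in limma and without overlap of the strains. Of all tested transcripts 5.92% were lower at that p and 9.42% were lower without overlap. Cd8a had a difference of −0.54 (standard error 0.12) and Cd8b1 one of −0.28 (standard error 0.09). Their summed linear signal was 376 to 419 in B6 and 303 to 339 in B6-ChrYSJL. Of 10 B cell markers 2 were higher at an unadjusted p under 0.05 in limma (4.69% of all tested transcripts), H2-Ab1 (0.64) and H2-Eb1 (0.37), which encode class II molecules. For both genes B6-ChrYSJL replicate 1 lay below the highest B6 pool, and Cd74 was at 0.06 (standard error 0.19). Of the 10 markers 9 had positive differences, the median was 0.21 and 6 were above background. Their summed signal was 922 to 983 in B6 and 862 to 1307 in B6-ChrYSJL. Of 10 markers of stroma and endothelium, cells that also use Nrp1 and Lrrc32, Pdpn (0.20) and Col3a1 (0.18) were higher, the endothelial Kdr was below background, and the summed signal was 1592 to 1716 and 1606 to 1736. None of 8 NK cell, 7 granulocyte and 4 erythroid or platelet markers passed. Those with the smallest p were Klra8 (0.24) and Gzma (−0.14) for NK cells, Ngp (0.22) and Mpo (0.14) for granulocytes, and Pf4 (0.13) and Itga2b (0.16) for erythroid cells and platelets, of which Itga2b alone averaged above background. Of 12 myeloid and dendritic markers Itgax, below background, was higher (0.17), and Itgam was at −0.10 without passing. The part of these cells in the differences above was not tested.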

How the data were processed

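RNA of CD4+TCRβ+ cells from 6 pools, 3 of B6 and 3 of B6-ChrYSJL, was amplified from 50 ng and hybridized to Affymetrix Mouse Gene 1.0 ST arrays. The authors processed the signals with RMA in Partek (background correction, quantile normalization and median polish) and deposited the result as log2 values, 1 for each array and transcript cluster. GCOS and mm9 are further names in the submitters' processing notes. These log2 values were used as they are. RMA narrows differences of dim transcripts, so sizes near background are uncertain. Of 35556 deposited clusters, 23410 had a gene symbol in the platform annotation (21789 with 1 symbol, 1621 with several) and entered 1 fit of B6-ChrYSJL minus B6 without a replicate block (lmFit, then eBayes, from limma 3.58.1 under R 4.3.3), whose p-values were adjusted by Benjamini-Hochberg across those clusters. Gene-wise standard errors, intervals and adjusted p-values come from limma. A gene with several clusters was read from the brightest. Array medians were 6.41 to 6.44 and arrays correlated at 0.991 to 0.993 across transcripts. The number of arrays limits the precision.

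The members and all lists were chosen with earlier results of these data known. Genes named were the 10 members, their relatives, the 3 genes of each related list with the smallest p, list genes past an FDR of 0.05, the 5 transcripts nearest to Foxp3 and to Nrn1, and the 2 markers of each other cell type with the smallest p; other list genes and neighbors were named after their values were seen. Of 20 other regulatory T cell genes 19 were measured. For values minus Foxp3 an exact permutation test (two-sided, 6 arrays) was used, and limma's intervals for them were a later addition, chosen with the data seen. The limma code was checked on simulated data. The labels give the pools of a strain as separate samples, and these served as replicates. Alternatives were other variance models, array weights, a filter on dim transcripts, all deposited clusters, other scalings, the mean of a gene's clusters, a replicate block and each pool left out. Promoter sequences came from RefSeq (GRCm38.p6), and plots were made in matplotlib 3.10.9 (Python 3.11.15).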

Additional observations from a re-analysis of the deposited data

How the results depend on the processing

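Differences of Foxp3, Ctla4, Nrp1, Nrn1, Ikzf2, Ikzf4, Gpr83 and Izumo1r kept their direction under all 16 alternatives, and Foxp3, Ctla4, Nrp1 and Nrn1 stayed at an unadjusted p under 0.05 in all 16. Nrn1 passed an FDR of 0.05 with an intensity trend in the variance model (difference −0.93, adjusted p = 0.0026 in limma), over transcripts above background (−0.93, adjusted p = 0.0386), with median centring (−0.94, adjusted p = 0.0428) and with the mean of a gene's clusters (−0.93, adjusted p = 0.0474), and its adjusted p reached 0.323 over all deposited clusters. Without 1 pool its difference lay between −1.001 and −0.83, and it passed an FDR of 0.1 only without B6 replicate 3 (adjusted p = 0.0835). The cause was not tested. Lrrc32 changed sign with repeated quantile normalization (0.0265) and without B6 replicate 3 or B6-ChrYSJL replicate 1 (range without 1 pool −0.0787 to 0.0336), and Il2ra without replicate 3 of either strain (range −0.0722 to 0.0064). Of the 10 genes 4 to 6 were lower at an unadjusted p under 0.05, with Ikzf4 lost in 8 alternatives, Gpr83 was higher by that rule with an intensity trend, repeated quantile normalization, the replicate block and without B6-ChrYSJL replicate 2 (differences 0.18, 0.23, 0.18 and 0.25), and the median of the 10 lay between −0.25 and −0.14. The other regulatory T cell genes had 13 to 18 of 19 lower, and all related lists together, which include them, 21 to 31 of 102 genes. Over transcripts above background fewer genes were counted, with 15 of 16 and 27 of 89 lower. These recounts were added after seeing the data. Nrn1 relative to Foxp3 lay between −0.79 and −0.59. With the replicate number as a block 5 of the 10 genes stayed lower, and Nrn1 was at −0.93 (adjusted p = 0.177) and Foxp3 at −0.21; same-numbered pools did not deviate together (correlations −0.0001, −0.036 and −0.017), so the numbers were not taken as a pairing. The mean of a gene's clusters changed no member's value, since each has 1 cluster.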
